A study of Homo sapiens with 45 samples.

Results

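The genes described here encode the collagens, laminins and integrins, together with fibronectin, in 3 human neuroblastoma cell lines exposed to palbociclib (PB), an inhibitor of the cell-cycle kinases CDK4 and CDK6. They were chosen by symbol, with earlier results of these data known: 43 collagen chains, 12 laminin chains, 12 integrin alpha chains, 8 integrin beta chains and fibronectin (FN1), which make 76 of the 29159 genes counted. Collagens are trimers that form fibrils, networks or beaded filaments outside the cell, and laminins are trimers of an alpha, a beta and a gamma chain that, with type IV collagen, build the basement membrane. Integrins are alpha-beta dimers in the plasma membrane that bind these proteins and fibronectin and tie them to the actin cytoskeleton. In neuroblastoma, genes of this kind are known to be expressed more by cells of the mesenchymal state than by cells of the adrenergic (ADRN) state, to which these lines belong.

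Poly(A) RNA was sequenced from 45 libraries, which fall into 9 groups of 5 biological replicates. The lines IMR-32, SH-SY5Y and SK-N-BE(2)C were each grown without PB (control), with 1 μM PB for 24 h, and with 1 μM PB for longer, which meant 5 days for SH-SY5Y and for IMR-32 but 7 days for SK-N-BE(2)C. SK-N-BE(2)C is MYCN amplified with loss of 1p, IMR-32 is MYCN and MEIS1 amplified with loss of 1p, and SH-SY5Y is ALK mutant, so each genetic background is present as a single line. Replicates were separate passages plated in independent experiments, and controls were collected at 24 h, so days in culture and PB cannot be told apart at the longer time, nor can 7 against 5 days of PB and the line.

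Libraries held 13459219 to 25441812 counts, and levels are given as CPM, which are counts scaled to library size, as mean ± SD (n = 5) unless the 5 replicates are listed in order. A gene was called when the edgeR quasi-likelihood test gave an adjusted p under 0.05 and the log2 fold change passed 0.5 in either direction, and fold changes are given as log2 ± SE. The 8 adrenergic markers, such as HAND2, were all at 1 CPM or more in IMR-32 and SK-N-BE(2)C, and 7 of 8 were in SH-SY5Y. All 8 cell-cycle markers fell at 24 h in each line, with a median log2 change of -3.02 in IMR-32, -3.41 in SH-SY5Y and -2.94 in SK-N-BE(2)C. At the longer time 7 of 8 were lower in IMR-32 (median -1.40) and all 8 in SH-SY5Y (-2.15) and in SK-N-BE(2)C (-2.58). The IMR-32 control library of replicate 5 stood apart from the other IMR-32 controls for several of these genes, and values without it stand beside several of the IMR-32 results. These are bulk RNA samples, in which fewer cells of a type and less RNA per cell cannot be told apart.

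Of the 76 genes, 46 passed the filter on low counts in IMR-32, 44 in SH-SY5Y and 45 in SK-N-BE(2)C. In all, 30 were tested in every line and 60 in at least 1 line, while 16, among them COL10A1, COL17A1, COL4A3 and ITGB6, were tested in none. Against control, 50 of these 60 were called in at least 1 line and time (65.2% of all genes tested in at least 1 line). At the longer time more of them fell than rose in IMR-32, with 20 of 46 lower (15.5% of all genes tested) and 6 higher (16.6%). In SH-SY5Y 15 of 44 were lower (17.3%) and 11 higher (18.6%), and in SK-N-BE(2)C 8 of 45 were lower (22.3%) and 18 higher (24.5%). LAMA1, a laminin alpha chain, fell in both lines that express it, the laminin chains LAMA5 and LAMB2 rose in SK-N-BE(2)C and SH-SY5Y, and FN1 rose in SK-N-BE(2)C and fell in the other lines.

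The sequence upstream of 4 of these genes is shown because their transcripts carry the patterns described below: COL4A2, which lies head to head with COL4A1 and fell with it, LAMA5 and LAMB2, which rose in the same lines, and FN1, which moved in opposite directions. Each window is the RefSeq promoter of 250 bases before to 50 after the gene's start on GRCh38.p14, which was found for 55 of the 76 genes, read 5′ to 3′ on the gene's strand. Capitals mark matches, on either strand, to the GC box GGGCGG, to CCAAT or to the CRE TGACGTCA.
COL4A2 (chr13:110307034-110307333, plus strand): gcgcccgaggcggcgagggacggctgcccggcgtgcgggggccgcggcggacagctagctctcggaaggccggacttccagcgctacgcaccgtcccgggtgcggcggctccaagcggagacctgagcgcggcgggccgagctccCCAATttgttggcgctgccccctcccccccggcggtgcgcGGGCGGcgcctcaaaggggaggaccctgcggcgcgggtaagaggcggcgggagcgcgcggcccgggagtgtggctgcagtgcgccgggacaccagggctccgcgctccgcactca
LAMA5 (chr20:62367263-62367562, minus strand): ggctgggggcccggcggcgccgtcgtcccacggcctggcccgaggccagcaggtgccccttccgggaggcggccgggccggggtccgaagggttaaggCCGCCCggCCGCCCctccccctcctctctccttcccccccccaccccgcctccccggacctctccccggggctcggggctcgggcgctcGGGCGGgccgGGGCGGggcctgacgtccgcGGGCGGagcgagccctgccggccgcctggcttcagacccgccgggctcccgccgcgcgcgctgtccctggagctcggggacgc
LAMB2 (chr3:49133001-49133300, minus strand): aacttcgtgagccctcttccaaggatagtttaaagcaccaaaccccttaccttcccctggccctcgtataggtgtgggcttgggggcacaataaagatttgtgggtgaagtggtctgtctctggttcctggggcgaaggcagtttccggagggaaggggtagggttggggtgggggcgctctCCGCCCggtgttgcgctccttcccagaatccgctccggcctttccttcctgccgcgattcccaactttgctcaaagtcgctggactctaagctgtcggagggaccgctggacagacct
FN1 (chr2:215436019-215436318, minus strand): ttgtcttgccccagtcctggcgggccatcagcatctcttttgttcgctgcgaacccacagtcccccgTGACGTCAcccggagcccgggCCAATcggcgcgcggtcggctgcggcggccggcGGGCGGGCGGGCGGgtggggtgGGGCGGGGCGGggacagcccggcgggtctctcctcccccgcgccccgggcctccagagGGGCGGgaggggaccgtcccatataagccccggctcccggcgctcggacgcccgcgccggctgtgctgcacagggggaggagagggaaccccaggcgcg

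GGGCGG was found once in the COL4A2 window, 5 times in that of LAMA5, once in that of LAMB2 and 6 times in that of FN1, where matches overlap each other. CCAAT was found in the COL4A2 and FN1 windows, and TGACGTCA, among the 55 genes, in that of FN1. On either strand, 44.6% of all 27305 promoters held GGGCGG, 35.7% held CCAAT and 1.98% held TGACGTCA, against 32, 13 and 1 of the 55 windows of these families. Also searched were TTTNNCGC, an E2F-type site found in 3 of the 55 windows and in 6.90% of all promoters, CACGTG, the E-box bound by MYC-type factors, found in 1 (ITGA6) and in 7.43%, and TATAAA, found in 6 and in 12.0%. COL4A1 and COL4A2 start 127 bases apart on opposite strands of chromosome 13, so their windows share 226 bases. These matches describe letters in the windows only.

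Before treatment the lines carried different sets of these chains. Together the genes took 2347 ± 41.4 CPM in SK-N-BE(2)C controls, 2356 ± 167 CPM in IMR-32 and 3300 ± 243 CPM in SH-SY5Y, which is 0.235%, 0.236% and 0.330% of counts. Collagen chains made up 324 ± 27.2 CPM in SK-N-BE(2)C and 1037 ± 89.5 CPM in IMR-32, while integrin alpha chains made up 625 ± 31.8 CPM in SK-N-BE(2)C and 320.1 ± 18.6 CPM in IMR-32. In a fit of all 45 libraries that tested 61 of the genes, 49 differed between untreated SK-N-BE(2)C and IMR-32, against 62.1% of all genes tested, 43 between SK-N-BE(2)C and SH-SY5Y, against 57.5%, and 52 between IMR-32 and SH-SY5Y, against 54.2%.

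Levels are compared between genes only as CPM per kilobase of the canonical transcript. By that measure COL6A1, a chain of the beaded filaments of type VI collagen, led the collagens in IMR-32 and SK-N-BE(2)C controls, with 25.7% ± 4.89 and 30.7% ± 4.28 of all collagen signal. COL3A1, a fibrillar chain, led in SH-SY5Y with 33.8% ± 2.48, where its controls held 373, 439, 496, 295 and 284 CPM, while in SK-N-BE(2)C its control mean was under 1 CPM and in IMR-32 it was not tested. LAMA5 was the leading laminin alpha chain in every line, with 74.1% ± 16.6 of the alpha signal per kilobase in IMR-32, 80.0% ± 2.46 in SH-SY5Y and 80.3% ± 6.36 in SK-N-BE(2)C. Next to it stood LAMA4, a chain of vessel and muscle basement membranes, in SK-N-BE(2)C (18.8% ± 6.36), and LAMA1, the early embryonic alpha chain, in IMR-32 (23.3% ± 16.9) and SH-SY5Y (14.7% ± 1.75). In the replicate 5 control of IMR-32 the shares were 53.1% for LAMA1 and 45.2% for LAMA5, and over the other 4 controls 15.9% ± 3.68 and 81.4% ± 4.44.

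LAMC1, the common gamma chain, held 99.9% ± 0.0706 of gamma signal per kilobase in SH-SY5Y and 99.6% ± 0.0630 in SK-N-BE(2)C, but 74.9% ± 2.54 in IMR-32, where LAMC3 held 25.0% ± 2.53. ITGB1, the beta chain shared by most integrins, held 98.1% ± 0.341 of the beta signal in IMR-32, 86.2% ± 1.56 in SH-SY5Y and 79.2% ± 4.17 in SK-N-BE(2)C. ITGAV, whose dimers bind the RGD motif, was at a like share of the alpha signal in each line, at 25.4% ± 3.54 in IMR-32, 27.5% ± 1.72 in SH-SY5Y and 25.8% ± 4.04 in SK-N-BE(2)C. The leading alpha chain in IMR-32 was ITGA4, which binds fibronectin and VCAM1 and held 38.5% ± 3.31 there. In SH-SY5Y it was ITGA1, with 32.9% ± 2.61, and in SK-N-BE(2)C ITGA1 stood close to ITGAV, with 24.9% ± 2.47. Some chains belonged to a single line: ITGA11, a collagen receptor, averaged 48.7 ± 7.29 CPM in SK-N-BE(2)C controls, and COL25A1, a transmembrane collagen of neurons, 72.2 ± 7.55 CPM in IMR-32 controls, and neither passed the filter elsewhere. The IMR-32 value of COL25A1 was 72.7 ± 8.55 CPM at 24 h and 68.4 ± 6.06 CPM at 5 days, and it was not called.

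The response to PB is taken first as counts of genes called. For SK-N-BE(2)C at 24 h, 10 of 45 were higher, against 10.9% of all genes tested, and 4 were lower, against 10.6% (14 in either direction, against 21.5%). At 7 days, 26 of 45 were called in either direction, against 46.8%. In IMR-32 at 24 h, 4 of 46 were higher (7.87% of all genes) and 6 lower (10.5%), or 10 in either direction (18.3%), and at 5 days 26 were called (32%). In SH-SY5Y at 24 h, 9 of 44 were higher (10.5%) and 9 lower (11%), or 18 in either direction (21.5%), and at 5 days 26 were called (35.9%). The median log2 change of the tested members at the longer time was -0.53 in IMR-32, -0.31 in SH-SY5Y and 0.31 in SK-N-BE(2)C, against 0.00, 0.01 and 0.01 over all genes tested in the same order. In IMR-32 the 10 called at 24 h became 5 without replicate 1, 6 without replicate 3 or 4 and 16 without replicate 5, and the 26 at 5 days became 33 without replicate 5. With SK-N-BE(2)C replicates 3 to 5 summed to 1, because they were closer to each other than to the rest at 24 h and in control, 6 were called at 24 h.

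Between 24 h and the longer time, 12 of 45 were higher and 8 lower in SK-N-BE(2)C (17.5% and 14.4% of all genes), 2 of 46 higher and 14 lower in IMR-32 (10.8% and 8.86%; 25 in either direction without replicate 5), and 4 of 44 higher and 13 lower in SH-SY5Y (10.5% and 6.23%). Summed over all 76 genes, the level went from 2347 ± 41.4 to 3185 ± 394 CPM at 7 days in SK-N-BE(2)C, from 2356 ± 167 to 2075 ± 28.8 CPM at 5 days in IMR-32, and from 3300 ± 243 to 4371 ± 594 CPM at 5 days in SH-SY5Y. Laminin chains in SH-SY5Y summed to 1236 ± 62.5 CPM in controls and 1906 ± 244 CPM at 5 days. For SK-N-BE(2)C, laminin chains summed to 870 ± 16.0 and 1171 ± 118.7 CPM and integrin alpha chains to 625 ± 31.8 and 1104 ± 448 CPM, where the 7 day libraries held 1781, 1248, 598, 854 and 1038 CPM of integrin alpha chains, with replicate 1 highest and replicate 3 inside the control range.

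**Figure D1:**
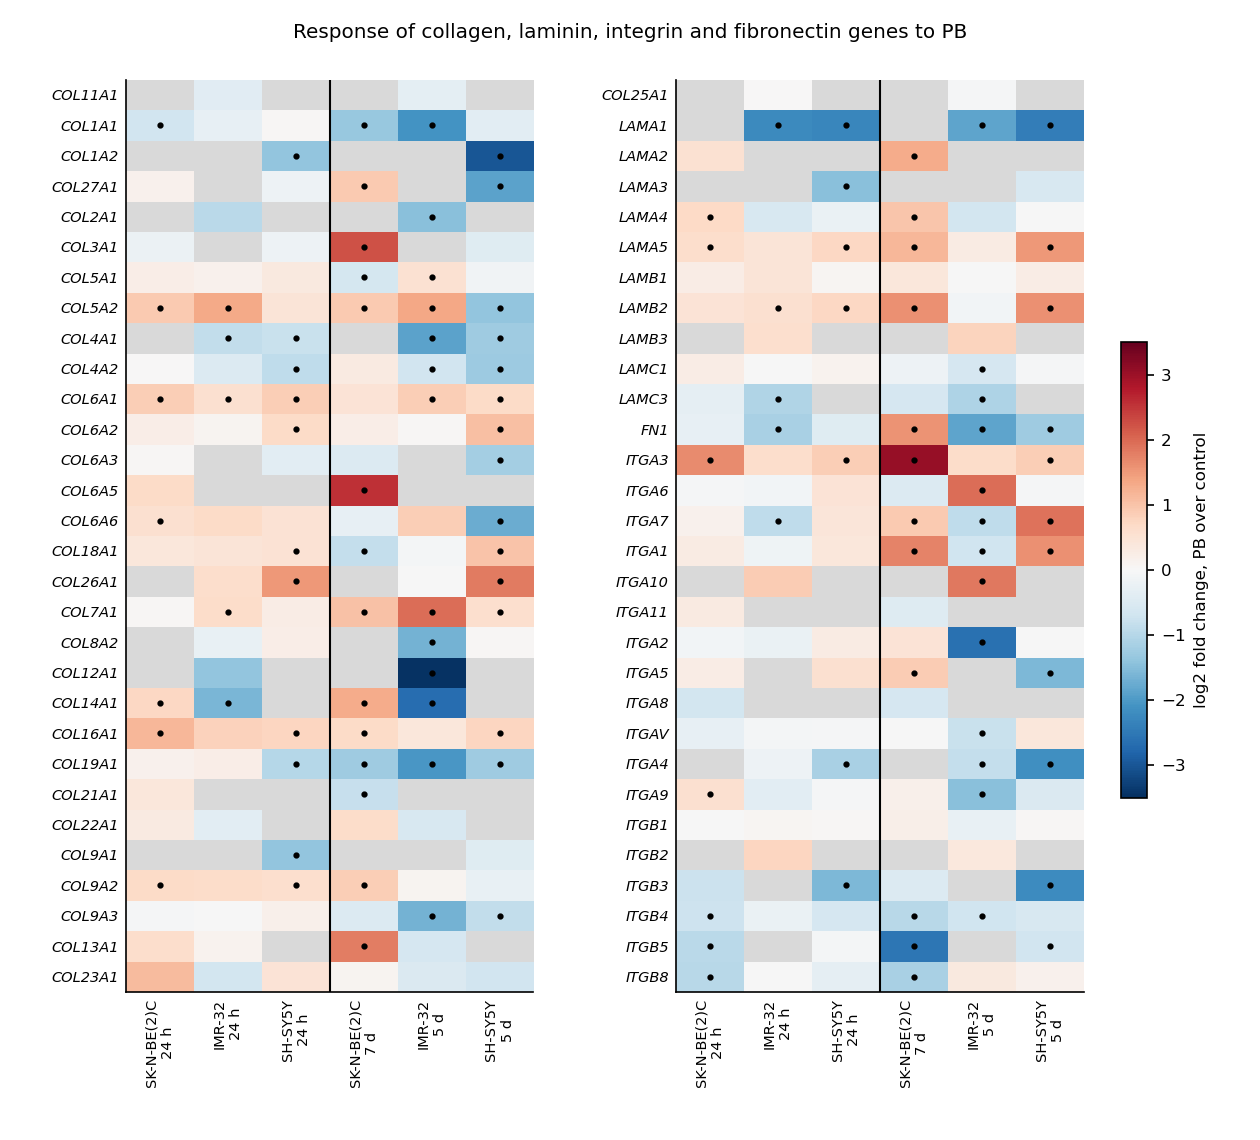
Heat map of the log2 fold change against control for the 60 collagen, laminin, fibronectin and integrin genes tested in at least 1 line (rows) at 24 h and at the longer time in each line (6 columns), with dots on values called and grey where a gene was not tested. The IMR-32 5 day column holds 20 called falls and 6 called rises, and the SK-N-BE(2)C 7 day column 8 and 18.

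Type IV collagen, the network of basement membranes, fell in both lines that express it. COL4A1 in SH-SY5Y went from 52.3, 63.5, 59.3, 61.3 and 48.7 CPM in controls to 29.6, 37.02, 41.9, 30.5 and 31.7 at 24 h and 21.4, 21.6, 31.7, 27.0 and 19.5 at 5 days. Each treated group lay below every control, with log2 changes of -0.77 ± 0.12 (adjusted p = 5.7e-05) and -1.25 ± 0.13 (adjusted p = 1.5e-07). COL4A2, its head-to-head neighbor and trimer partner, went in SH-SY5Y from 84.1 ± 12.9 CPM to 46.3 ± 9.17 and 35.4 ± 9.08, by -0.89 ± 0.17 (adjusted p = 0.00054) and -1.27 ± 0.17 (adjusted p = 1.2e-05), again without overlap.

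In IMR-32, COL4A1 controls held 34.6, 33.5, 30.9, 26.9 and 60.9 CPM, of which replicate 5 was the highest. At 24 h it held 19.7, 13.9, 22.3, 16.9 and 30.5 CPM and at 5 days 10.7, 8.31, 10.8, 11.2 and 8.66. It fell by 0.85 on the log2 scale (SE 0.23, adjusted p = 0.0089) at 24 h and by 1.87 (SE 0.23, adjusted p = 1.6e-05) at 5 days, and without the replicate 5 control by 0.60 and 1.62. COL4A2 held 237 ± 21.1, 171 ± 15.8 and 145 ± 17.6 CPM in IMR-32, a log2 change of -0.47 ± 0.09 at 24 h, inside the 0.5 limit and so not called, and of -0.67 ± 0.09 (adjusted p = 4.2e-05) at 5 days. The ratio of COL4A2 to COL4A1 per kilobase, 7.02, 7.06, 6.98, 8.56 and 4.50 in IMR-32 controls, was 15.02, 14.9, 15.1, 11.7 and 18.0 at 5 days, so that the groups did not overlap (log2 difference 1.15 ± 0.18, two-sided exact permutation test p = 0.0079, adjusted p = 0.015). In SH-SY5Y the geometric mean of this ratio was 1.49 in controls and 1.46 at 5 days (exact permutation p = 0.88). In SK-N-BE(2)C COL4A2 stayed between 0.246 and 0.996 CPM, was not called, and COL4A1 was not tested.

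Among fibrillar collagens, the main chains of tendon, bone and skin, COL1A1 fell in IMR-32 and SK-N-BE(2)C. In IMR-32, controls held 121, 113, 82.1, 110 and 148 CPM of it and 5 day libraries 23.4, 24.1, 24.6, 22.1 and 36.9, without overlap, a change of -2.09 ± 0.17 (adjusted p = 5.2e-07) after -0.28 ± 0.16 at 24 h, which was not called (-0.17 ± 0.16 without the replicate 5 control). It changed in SK-N-BE(2)C by -0.66 ± 0.21 at 24 h and -1.34 ± 0.22 at 7 days, both called, of which the 24 h call ended without replicate 4 or 5 of every group (adjusted p 0.054 to 0.077) and with replicates 3 to 5 summed (adjusted p = 0.17), and in SH-SY5Y the 5 day value was -0.37 ± 0.27, not called. COL1A2, its partner in type I collagen, was tested only in SH-SY5Y, where it held 1.198 ± 0.331 CPM in controls and fell by 1.37 (SE 0.39) at 24 h and 2.997 (SE 0.48) at 5 days.

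COL3A1 rose in SK-N-BE(2)C to 2.53, 6.97, 4.37, 2.02 and 2.20 CPM at 7 days (2.22 ± 0.39, adjusted p = 8.2e-05), and in SH-SY5Y, where controls averaged 377 ± 91.3 CPM, it changed by -0.43 ± 0.18 (adjusted p = 0.048), inside the limit. The type V chains, which regulate fibril diameter, moved differently. COL5A2 rose in SK-N-BE(2)C (0.91 ± 0.23 at 24 h, where summing replicates 3 to 5 gave an adjusted p of 0.070, and 0.92 ± 0.23 at 7 days) and IMR-32 (1.324 ± 0.25 and 1.36 ± 0.25), and in SH-SY5Y went from 4.94, 3.76, 3.58, 3.13 and 3.80 CPM to 1.28, 0.943, 1.84, 1.60 and 1.78 at 5 days (-1.39 ± 0.18). The more abundant COL5A1 fell in SK-N-BE(2)C at 7 days (-0.61 ± 0.12) and rose in IMR-32 at 5 days (0.54 ± 0.20, adjusted p = 0.033), a call that ended without any of 6 libraries (control replicates 2, 3 and 5, or 5 day replicates 1, 2 and 3), with values of 0.43 to 0.54 and adjusted p of 0.053 to 0.083. The COL5A1 to COL5A2 ratio per kilobase fell from 29.9 to 10.4 in SK-N-BE(2)C and from 102 to 58.2 in IMR-32 and rose from 6.50 to 16.2 in SH-SY5Y at the longer time (exact permutation adjusted p = 0.015, 0.025 and 0.015).

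COL6A1 was called higher in all 3 lines at 24 h, the one of the 30 genes tested in every line of which that was so (2.84% of all genes so tested). In SH-SY5Y it held 102, 122, 118, 107 and 93.2 CPM in controls, 205, 231, 212, 171 and 185 at 24 h and 205, 181, 165, 182 and 143 at 5 days, with every treated library above every control (0.86 ± 0.09, adjusted p = 7.4e-07, and 0.67 ± 0.09). It rose in SK-N-BE(2)C by 0.86 ± 0.13 at 24 h (adjusted p = 4.5e-05), when its lowest library held 135 CPM, and stood at 0.47 ± 0.13 at 7 days, inside the limit. In IMR-32 it held 239, 217, 208, 269 and 130 CPM in controls and 346, 291, 325, 385 and 218 at 24 h, which overlap, and 419, 447, 320, 376 and 325 at 5 days, which do not (0.56 ± 0.18, adjusted p = 0.022, and 0.87 ± 0.18, adjusted p = 0.00085). The 24 h call in IMR-32 ended without the replicate 5 control or without replicate 1 or 4 at 24 h, with values of 0.43 to 0.53 and adjusted p of 0.037 to 0.062.

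COL6A2, which assembles with COL6A1, rose only in SH-SY5Y among the tests made, from 178, 221, 230, 170 and 148 CPM to 502, 426, 380, 398 and 272 at 5 days (1.04 ± 0.16, adjusted p = 3.1e-05), and had values of 0.03 ± 0.11 in IMR-32 (-0.04 ± 0.10 without the replicate 5 control) and 0.24 ± 0.11 in SK-N-BE(2)C at the longer time. The ratio of COL6A1 to COL6A2 per kilobase rose from 1.43 to 2.59 in IMR-32 and fell from 0.473 to 0.367 in SH-SY5Y (exact permutation adjusted p = 0.015 and 0.025). The same ratio in SK-N-BE(2)C was 1.66 in controls, 2.59 at 24 h and 1.97 at 7 days (adjusted p = 0.015 and 0.034). COL6A5 rose in SK-N-BE(2)C to 7.44, 6.32, 2.40, 2.60 and 3.38 CPM at 7 days from at most 1.15 in controls (2.56 ± 0.34), and COL6A6 fell in SH-SY5Y (-1.75 ± 0.33). COL6A3, another type VI chain, was also called lower in SH-SY5Y at 5 days, against the rises of COL6A1 and COL6A2 there. In IMR-32, COL6A6 had 6.69 CPM in the replicate 5 control against 0.314 to 0.631 in the others, and its 5 day value was 0.86 ± 0.98, not called, but 1.93 ± 0.67 (adjusted p = 0.025) with the replicate number as a block, 2.74 ± 0.92 (adjusted p = 0.025) without the replicate 5 control and 2.81 ± 0.35 (adjusted p = 4.2e-06) without replicate 5 of every group.

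COL7A1, the chain of anchoring fibrils, was the one of those 30 called higher in all 3 lines at the longer time (6.91% of all genes so tested). In IMR-32 it held 11.5, 9.78, 14.1, 10.5 and 9.91 CPM in controls and 42.7, 49.5, 39.1, 55.1 and 22.3 at 5 days, all above the controls (1.95 ± 0.21, adjusted p = 4.1e-06). It rose in SK-N-BE(2)C by 1.04 ± 0.38 (adjusted p = 0.023), which ended without control replicate 1 or 2 or 7 day replicate 2 or 3 (0.86 to 0.94, adjusted p 0.056 to 0.063) and with replicates 3 to 5 summed (adjusted p = 0.057). In SH-SY5Y it rose by 0.59 ± 0.21 (adjusted p = 0.019), which ended without control replicate 5 or 5 day replicate 1 (0.39 to 0.48, adjusted p 0.056 to 0.083). COL19A1, a minor collagen that associates with fibrils, was the one called lower in all 3 at the longer time (6.5%), at group means of at most 1.30 CPM (-2.03 ± 0.52 in IMR-32, -1.23 ± 0.31 in SH-SY5Y and -1.23 ± 0.48 in SK-N-BE(2)C). The SK-N-BE(2)C call ended without control replicate 3 or 4 or 7 day replicate 2 or 4 (-1.17 to -1.04, adjusted p 0.061 to 0.080) and with replicates 3 to 5 summed (adjusted p = 0.085).

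COL14A1, which also associates with fibrils, moved in opposite directions at both times. Its level in IMR-32 was 20.3, 22.4, 19.9, 16.2 and 12.1 CPM in controls, 6.86, 5.56, 6.15, 7.32 and 3.65 at 24 h and 2.04, 1.90, 2.46, 2.60 and 4.79 at 5 days, with no overlap between control and either time (-1.61 ± 0.24 and -2.68 ± 0.26, adjusted p = 1.5e-06). It rose in SK-N-BE(2)C at 7 days to 1.33, 2.40, 1.46, 2.54 and 2.37 CPM (1.31 ± 0.25), while its 24 h rise of 0.73 ± 0.26 (adjusted p = 0.030) ended without control replicate 1, 3 or 4 or 24 h replicate 4 or 5 (0.59 to 0.71, adjusted p 0.056 to 0.079) and with replicates 3 to 5 summed (adjusted p = 0.13). COL12A1 fell in IMR-32 at 5 days (-3.46 ± 0.69) from controls of 1.34 ± 0.729 CPM. Its 24 h value of -1.39 ± 0.55 had an adjusted p of 0.065, of 0.045 with the replicate block and of 0.012 without the replicate 5 control (-1.66 ± 0.45). COL18A1, the source of endostatin, fell in SK-N-BE(2)C at 7 days from 33.3, 21.1, 16.6, 18.3 and 18.3 CPM to 13.5, 9.92, 11.6, 14.7 and 10.5, and rose in SH-SY5Y at 5 days from 37.5, 48.8, 49.2, 36.3 and 29.0 to 92.4, 78.3, 85.9, 92.7 and 57.1, without overlap in either (-0.83 ± 0.19 and 0.997 ± 0.16). Its exons share 1563 bases with SLC19A1 on the opposite strand.

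COL16A1 was called higher at 24 h in SK-N-BE(2)C (1.17 ± 0.28) and SH-SY5Y (0.74 ± 0.10), and in IMR-32, where the replicate 5 control held 46.4 CPM against 12.7 to 20.9 in the others, the value was 0.80 ± 0.47 (adjusted p = 0.21) or 0.84 ± 0.23 (adjusted p = 0.0096) with the replicate block. Without that control it was 1.23 ± 0.45 (adjusted p = 0.057), and without replicate 5 of every group 0.88 ± 0.24 (adjusted p = 0.012). COL9A2, a cartilage-type collagen, was likewise called at 24 h in SK-N-BE(2)C (0.68 ± 0.14, adjusted p = 0.054 with replicates 3 to 5 summed) and SH-SY5Y (0.58 ± 0.23). In IMR-32 its value of 0.63 was called with the block (0.65 ± 0.16, adjusted p = 0.0047) or without replicate 5 of every group (0.61 ± 0.13, adjusted p = 0.0012), and was 0.38 ± 0.32 without the replicate 5 control. COL26A1 rose in SH-SY5Y at both times (1.52 ± 0.26, adjusted p = 9.9e-05, and 1.81 ± 0.26, adjusted p = 6.5e-06), and in IMR-32 its 24 h value of 0.61 ± 0.32 was not called (adjusted p = 0.15), nor without the replicate 5 control (0.45) or replicate 5 of every group (0.56), but was with the block (0.65 ± 0.20, adjusted p = 0.016). COL9A2 in SH-SY5Y (adjusted p = 0.044) lost its call without control replicate 1, 4 or 5, 24 h replicate 1, 2 or 3, or 5 day replicate 2, 4 or 5 (0.43 to 0.58, adjusted p 0.052 to 0.14).

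Laminin alpha chains moved in opposite directions in SH-SY5Y, where LAMA1 fell and LAMA5 rose. LAMA1 (chr18:6941741-7117796 on GRCh37, minus strand) held 31.6, 32.3, 35.8, 35.6 and 31.2 CPM in SH-SY5Y controls, 5.45, 7.82, 9.12, 6.02 and 6.79 at 24 h and 3.74, 5.66, 8.13, 7.21 and 6.52 at 5 days. No treated library reached the lowest control, and the log2 changes were -2.27 ± 0.16 (adjusted p = 3.5e-09) and -2.43 ± 0.16 (adjusted p = 1.4e-09). In IMR-32 it held 27.7, 26.2, 25.2, 20.2 and 71.6 CPM in controls, 8.49, 5.11, 7.01, 6.10 and 9.88 at 24 h and 10.2, 7.55, 10.2, 10.8 and 7.68 at 5 days. Here too the groups did not overlap (-2.22 ± 0.32 and -1.84 ± 0.31), and without the replicate 5 control the changes were -1.75 and -1.37, both called. In SK-N-BE(2)C LAMA1 lay between 0 and 0.133 CPM and was not tested. Its exons share 1754 bases with genes on the opposite strand that carry no symbol.

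LAMA5 (chr20:60883011-60942368 on GRCh37, minus strand), the alpha chain of most adult epithelial basement membranes, held 207, 249, 189.6, 255 and 187 CPM in SH-SY5Y controls, 355, 436, 359, 324 and 359 at 24 h and 698, 702, 624, 654 and 455 at 5 days. It rose at both times with no overlap (0.72 ± 0.12, adjusted p = 6.1e-05, and 1.51 ± 0.12, adjusted p = 9.8e-09). SK-N-BE(2)C controls held 71.2, 67.3, 74.0, 71.7 and 77.4 CPM of it, against 115, 161, 203, 147 and 182 at 7 days, again without overlap, after a rise at 24 h (0.61 ± 0.13 and 1.17 ± 0.14, adjusted p = 1.2e-06). In IMR-32 the values of LAMA5 were 0.45 ± 0.27 and 0.29 ± 0.27, neither called, and without the replicate 5 control 0.29 ± 0.25 at 24 h and 0.12 ± 0.25 at 5 days. Its share of laminin alpha signal per kilobase was 80.0% ± 2.46 in SH-SY5Y controls, 94.8% ± 0.577 at 24 h and 96.7% ± 0.880 at 5 days, and in IMR-32 74.1% ± 16.6, 93.6% ± 2.53 and 91.9% ± 1.76, while in SK-N-BE(2)C it was 80.3% ± 6.36, 79.0% ± 7.25 and 82.2% ± 5.35.

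LAMB2, the beta chain of synaptic and kidney basement membranes, held 86.8, 93.4, 91.4, 82.5 and 67.4 CPM in SH-SY5Y controls, 156, 151, 145, 133 and 129 at 24 h and 370, 302, 229, 221 and 169 at 5 days. It rose at both times without overlap (0.73 ± 0.16, adjusted p = 0.0015, and 1.59 ± 0.16, adjusted p = 5.6e-07). SK-N-BE(2)C controls held 74.7, 57.8, 76.3, 89.1 and 84.0 CPM, against 162, 299, 293, 193 and 206 at 7 days (1.61 ± 0.20, adjusted p = 3.5e-06), after 0.49 ± 0.20 at 24 h, not called. In IMR-32 it was 0.56 ± 0.19 at 24 h (adjusted p = 0.034), a call that ended without any of control replicates 1 to 4 or 24 h replicates 1 and 5 (0.35 to 0.56, adjusted p 0.059 to 0.084) or without replicate 1, 3, 4 or 5 of every group (0.47 to 0.61), and -0.10 ± 0.19 at 5 days (0.01 ± 0.19 without the replicate 5 control). The other main beta chain, LAMB1, was tested in all 3 lines and called in none at either time, with -0.01 ± 0.10 in IMR-32, 0.27 ± 0.06 in SH-SY5Y and 0.41 ± 0.08 in SK-N-BE(2)C at the longer time. The share of LAMB2 in beta signal per kilobase was 19.96% ± 2.40 in SK-N-BE(2)C controls and 36.1% ± 3.46 at 7 days, and 13.4% ± 1.21 in SH-SY5Y controls and 27.6% ± 4.85 at 5 days. In IMR-32 it was 6.49% ± 1.10 and 6.07% ± 0.844.

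**Figure D2:**
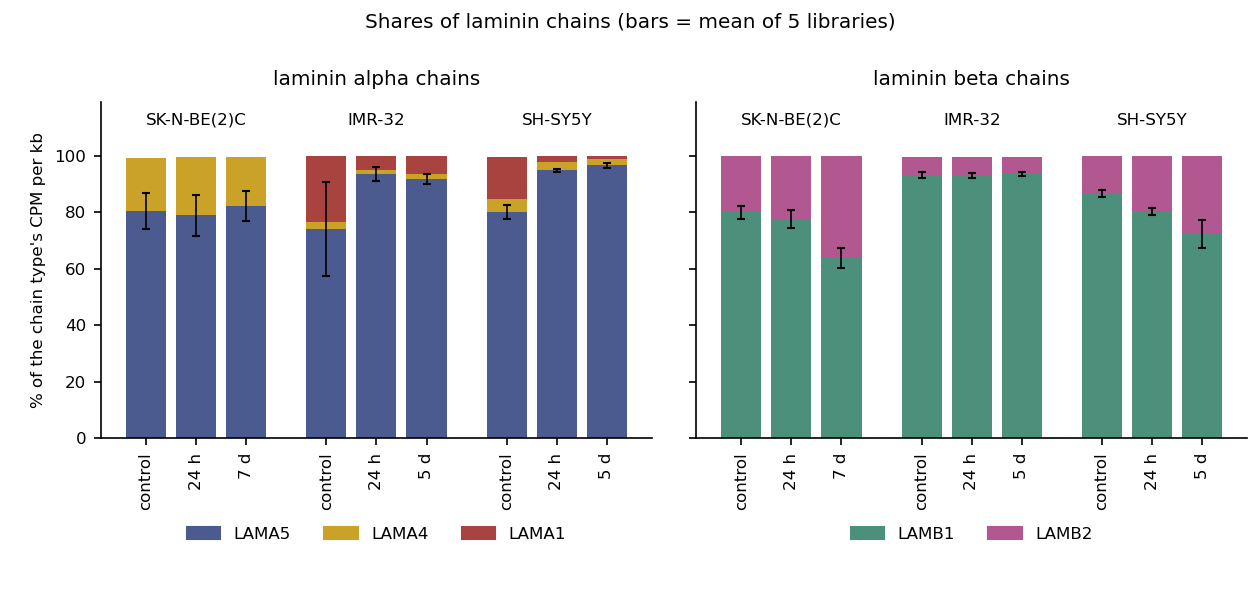
Stacked bars of each laminin chain's share (percent, mean of 5 replicates) of the alpha and the beta chain signal per kilobase by line and condition, with the error bar giving the SD of the bottom chain, LAMA5 or LAMB1. LAMA5 covers 96.7% of the alpha bar in SH-SY5Y at 5 days against 80.0% in control, and LAMB1 covers 63.8% of the beta bar in SK-N-BE(2)C at 7 days against 79.9%.

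LAMC1 fell in IMR-32 at 5 days from 136, 128, 98.5, 112 and 153 CPM to 81.1, 73.8, 79.1, 81.7 and 87.1 (-0.60 ± 0.17, adjusted p = 0.0071), and was not called in the other lines. LAMC3 fell there as well, at 24 h (-1.05 ± 0.20) and at 5 days (-1.07 ± 0.20), and its replicate 5 libraries were the highest of their groups, at 56.0 CPM in control and 30.1 at 24 h. Without the replicate 5 control the values were -0.89 and -0.91, both called. The ratio of LAMB1 to LAMC1 per kilobase rose at the longer time in each line, from 2.14 to 2.64 in SH-SY5Y, 3.02 to 4.50 in IMR-32 and 1.05 to 1.56 in SK-N-BE(2)C (exact permutation adjusted p = 0.015, 0.015 and 0.034). LAMA4 rose in SK-N-BE(2)C at 7 days (0.97 ± 0.27), a call that ended with replicates 3 to 5 summed (0.56, adjusted p = 0.13). Its 24 h rise (0.69 ± 0.27, adjusted p = 0.046) had an adjusted p of 0.074 with the replicate block and ended without control replicate 1, 3, 4 or 5, 24 h replicate 1, 2, 4 or 5, or 7 day replicate 3 or 5 (0.52 to 0.74, adjusted p 0.051 to 0.13). LAMA2, the muscle and nerve chain, rose at 7 days to 0.693 ± 0.295 CPM (1.29 ± 0.41). LAMA3 fell in SH-SY5Y at 24 h (-1.47 ± 0.50, adjusted p = 0.021), which ended without control replicate 2 or 24 h replicate 1 or 5 (-1.30 to -1.17, adjusted p 0.052 to 0.068).

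**Figure D3:**
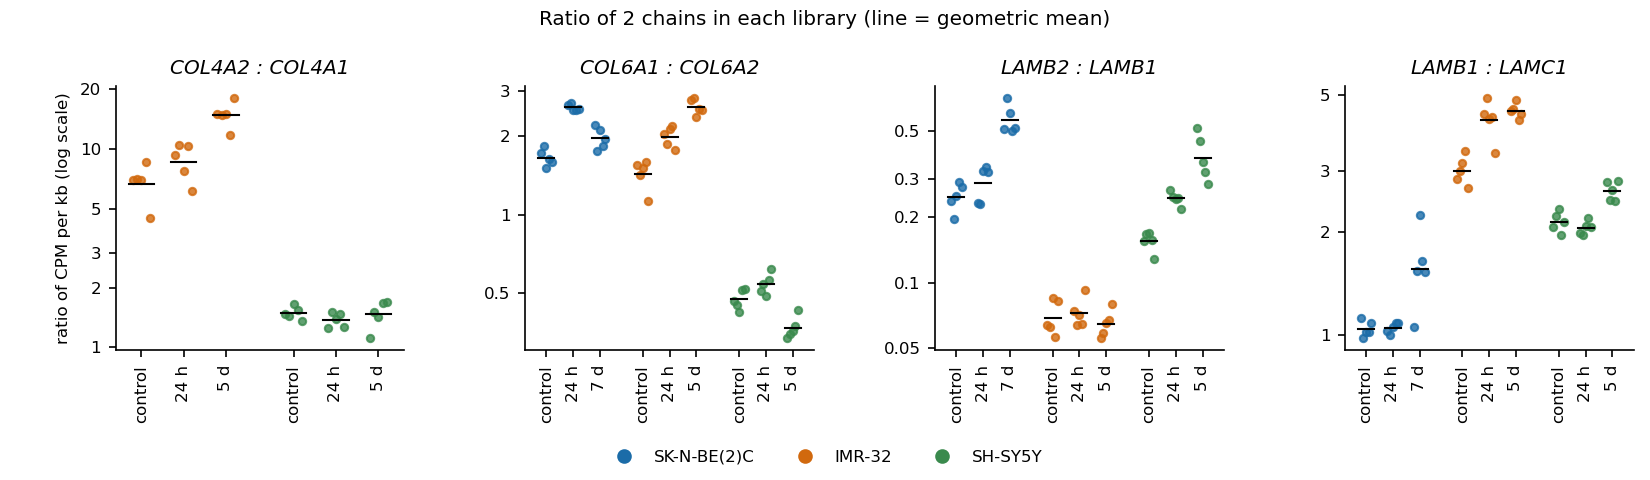
Ratios of chain pairs per kilobase (log axis) for COL4A2 to COL4A1, COL6A1 to COL6A2, LAMB2 to LAMB1 and LAMB1 to LAMC1, with a point for each library and a line at the geometric mean of each group of 5. The IMR-32 ratio of COL4A2 to COL4A1 lies at 4.50 to 8.56 in control and 11.7 to 18.0 at 5 days, while in SH-SY5Y the control and 5 day points overlap.

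Fibronectin (FN1, chr2:216225163-216300796 on GRCh37, minus strand), which bridges collagen fibrils and integrins, moved in opposite directions at the longer time. The level in SK-N-BE(2)C was 33.4, 48.7, 38.8, 37.6 and 35.5 CPM in controls, 37.8, 33.9, 29.2, 30.4 and 28.6 at 24 h and 65.9, 222, 152, 61.6 and 69.2 at 7 days. The 7 day libraries were all above the controls and spread most, with replicates 2 and 3 highest (1.57 ± 0.31, adjusted p = 0.00039), and the 24 h value was -0.28 ± 0.31, not called. In SH-SY5Y it held 132, 141, 139.6, 121 and 131 CPM in controls and 61.2, 63.6, 59.4, 53.4 and 43.96 at 5 days, without overlap (-1.26 ± 0.13, adjusted p = 5.1e-07), after -0.44 ± 0.13 at 24 h, inside the limit. Its level in IMR-32 was 30.8, 30.1, 26.4, 19.99 and 84.0 CPM in controls, 16.3, 8.36, 15.7, 16.4 and 30.8 at 24 h and 12.6, 10.1, 7.13, 11.4 and 10.2 at 5 days. It fell at 5 days without overlap (-1.86 ± 0.39, adjusted p = 0.0013), and by 1.34 (SE 0.28) without the replicate 5 control. Its 24 h fall in IMR-32 (-1.13 ± 0.38, adjusted p = 0.034) ended without the replicate 5 control (-0.61, adjusted p = 0.11) and without any of 24 h replicates 1 to 4 (adjusted p from 0.066).

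**Figure D4:**
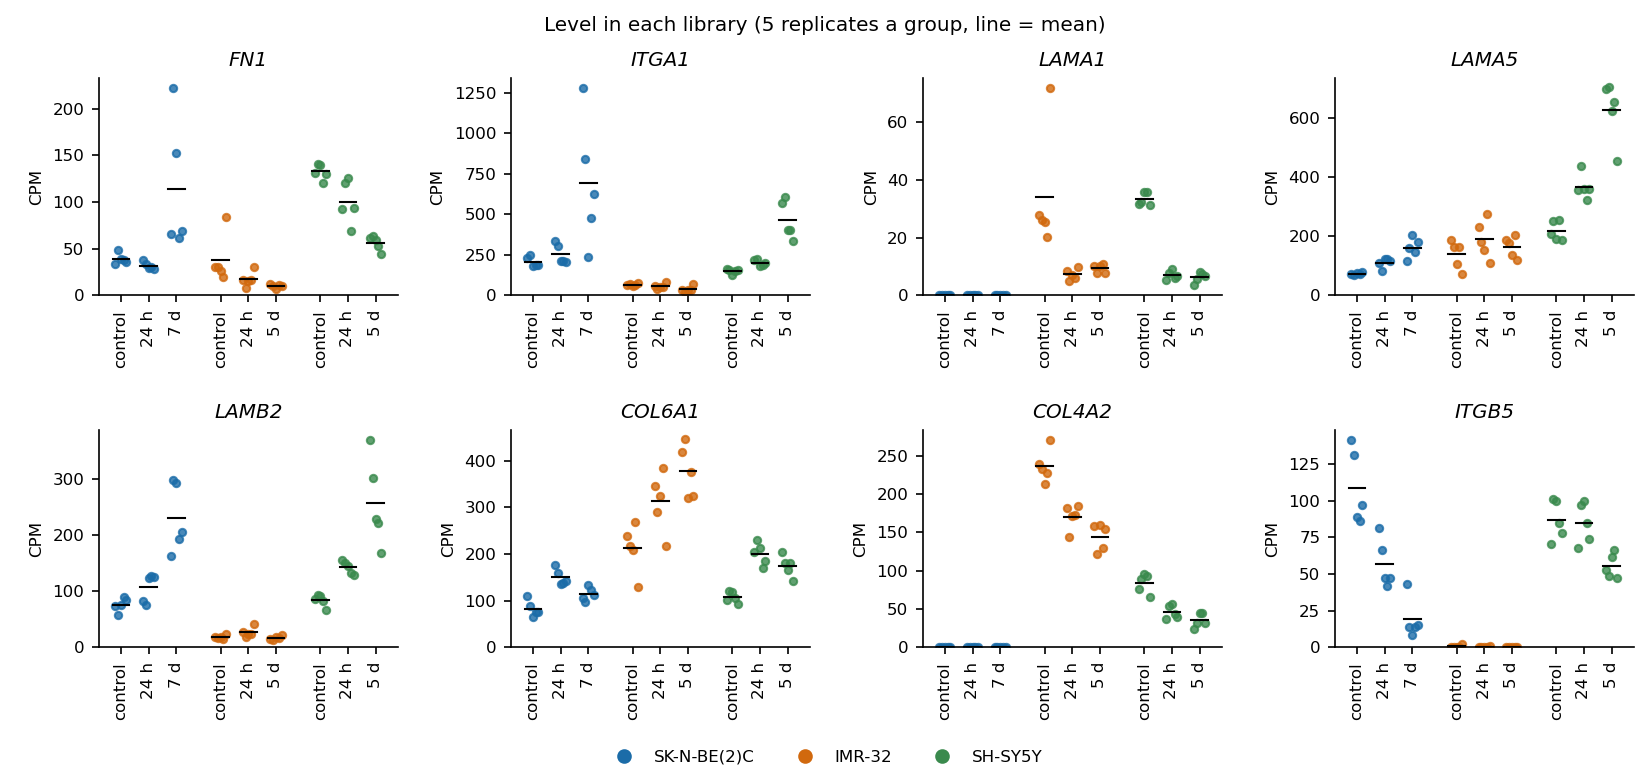
CPM (linear axis from 0) of FN1, ITGA1, LAMA1, LAMA5, LAMB2, COL6A1, COL4A2 and ITGB5 in each of the 45 libraries, by line and condition, with a point for each replicate and a line at the mean of 5. FN1 at the longer time lies above every control in SK-N-BE(2)C and below every control in IMR-32 and SH-SY5Y.

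Among integrins, the collagen receptor chain ITGA1 (chr5:52083750-52255039 on GRCh37) rose in SK-N-BE(2)C and SH-SY5Y. In SH-SY5Y it held 161, 157, 127, 151 and 156 CPM in controls and 568, 605, 404, 405 and 337 at 5 days (1.60 ± 0.13, adjusted p = 2.6e-08), without overlap, and its 24 h value of 0.39 ± 0.13 was inside the limit. Its level in SK-N-BE(2)C was 230, 248, 184, 189 and 187 CPM in controls and 1280, 844, 238, 477 and 629 at 7 days (1.75 ± 0.33, adjusted p = 0.00023), where only replicate 3 lay within the control range. Its level in IMR-32 was 61.3, 68.3, 55.1, 61.5 and 73.4 CPM in controls and 31.7, 22.6, 35.8, 34.4 and 67.5 at 5 days (-0.70 ± 0.25, adjusted p = 0.028), a call that ended without control replicate 2 or 5 or any of 5 day replicates 1 to 4 (-0.68 to -0.56, adjusted p 0.051 to 0.066). Its share of integrin alpha signal per kilobase was 24.9% ± 2.47 in SK-N-BE(2)C controls and 49.5% ± 12.5 at 7 days, and 32.9% ± 2.61 and 53.1% ± 2.06 in SH-SY5Y. Exons of ITGA1 share 1070 bases with PELO and a pseudogene on its strand and 1494 bases with antisense genes.

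The laminin receptor chains ITGA3 and ITGA7 also rose. ITGA3 in SK-N-BE(2)C held 1.80, 1.496, 2.17, 2.76 and 2.18 CPM in controls, 5.50, 4.76, 9.46, 6.92 and 5.59 at 24 h and 10.1, 24.0, 20.6, 12.7 and 15.8 at 7 days, with every treated library above every control (1.64 ± 0.26 and 3.04 ± 0.26, adjusted p = 3.4e-08). In SH-SY5Y it rose by 0.87 ± 0.15 and 0.85 ± 0.15. In IMR-32 its replicate 5 control held 1.22 CPM against 10.0 to 15.4 in the others, and the values were 0.62 ± 0.46 and 0.66 ± 0.46, not called, and at 5 days 0.87 ± 0.33 (adjusted p = 0.041) with the replicate block. Without that control the values were 0.34 ± 0.30 and 0.37 ± 0.30, not called, and without replicate 5 of every group 0.56 ± 0.15 (adjusted p = 0.0061) at 24 h and 0.43 ± 0.15 at 5 days. ITGA7, a chain of muscle and nerve laminin receptors, rose in SH-SY5Y from 8.53, 7.53, 7.45, 5.77 and 4.72 CPM to 43.4, 28.8, 25.0, 19.6 and 11.9 at 5 days, all above the controls (1.90 ± 0.28), and in SK-N-BE(2)C at 7 days (0.91 ± 0.24). In IMR-32 it fell by 0.88 (SE 0.29) at each time from a control mean of 1.91 CPM, and the 5 day fall ended without control replicate 3 (-0.77, adjusted p = 0.053) and the 24 h fall without any of 5 libraries (control replicates 1, 2 and 3 and 24 h replicates 1 and 4, adjusted p from 0.050 to 0.073).

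ITGA6, another laminin receptor chain, rose in IMR-32 at 5 days to 14.4, 27.0, 7.84, 16.6 and 1.10 CPM from 3.38, 3.71, 4.65, 4.32 and 1.76 (1.95 ± 0.59, adjusted p = 0.012), where replicate 5 lay below every control. The call ended without replicate 1, 2 or 4 of every group (1.54 to 1.94, adjusted p 0.054 to 0.078). The receptor chain ITGA4 fell in SH-SY5Y from 16.6, 16.6, 14.5, 12.9 and 12.3 CPM to 4.13, 2.98, 3.36, 3.21 and 3.12 at 5 days (-2.13 ± 0.14, adjusted p = 1.1e-09) and in IMR-32 from 113 ± 14.4 to 61.9 ± 8.49 CPM (-0.83 ± 0.13), in both without overlap. Its exons share 2813 bases with CERKL on the opposite strand. ITGA9, which binds tenascin and VCAM1, rose in SK-N-BE(2)C at 24 h (0.55 ± 0.09), fell in IMR-32 at 5 days (-1.48 ± 0.21) and had -0.50 ± 0.09 in SH-SY5Y at 5 days, just inside the limit. ITGA2, a collagen receptor chain, fell in IMR-32 at 5 days (-2.62 ± 0.35) and ITGAV did too (-0.77 ± 0.18), while ITGA10 rose there (1.84 ± 0.55, or 2.40 ± 0.56 without the replicate 5 control), which ended without replicate 2 of every group (adjusted p = 0.055).

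Integrin beta chains gave no called rise against control in any line at either time with all libraries in the fit. Without replicate 5 of every group, ITGB8 in IMR-32 at 5 days was called higher (0.51 ± 0.17, adjusted p = 0.019), against 0.33, not called, with it. ITGB1 was called in none, with -0.25 ± 0.17 in IMR-32 (-0.16 ± 0.18 without the replicate 5 control), 0.04 ± 0.07 in SH-SY5Y and 0.22 ± 0.05 in SK-N-BE(2)C at the longer time. ITGB5, the partner of ITGAV in a vitronectin receptor, held 141, 131, 88.6, 86.1 and 96.8 CPM in SK-N-BE(2)C controls, 81.4, 66.3, 47.1, 42.0 and 47.2 at 24 h and 43.0, 14.2, 8.48, 14.0 and 15.5 at 7 days, without overlap between control and either time. It fell by 2.53 (SE 0.36, adjusted p = 1.6e-05) at 7 days, and its 24 h fall (-0.94 ± 0.33, adjusted p = 0.033) ended without control replicate 1 or 2 or 24 h replicate 3, 4 or 5 (-0.88 to -0.82, adjusted p 0.072 to 0.078) and with replicates 3 to 5 summed (adjusted p = 0.15). In SH-SY5Y it fell at 5 days (-0.67 ± 0.13). ITGB3, which pairs with ITGAV, fell in SH-SY5Y from 6.44 ± 1.29 CPM to 2.21 ± 0.627 and 1.43 ± 0.331 (-1.58 ± 0.20 and -2.19 ± 0.21), ITGB8, also a partner of ITGAV, fell in SK-N-BE(2)C (-0.98 ± 0.24 and -1.14 ± 0.24), and ITGB4, the hemidesmosome chain, fell in SK-N-BE(2)C (-0.72 ± 0.25 and -0.96 ± 0.26) and in IMR-32 at 5 days (-0.69 ± 0.20). Exons of ITGB3 share 2266 bases with a gene without a symbol on the same strand. As a share of beta signal per kilobase, ITGB5 was 19.5% ± 4.13 in SK-N-BE(2)C controls, 11.5% ± 3.69 at 24 h and 3.55% ± 2.44 at 7 days.

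Whether the response itself differed between lines was tested in the fit of all 45 libraries. At 24 h, 5 of 61 genes differed between SK-N-BE(2)C and IMR-32 (4.49% of all genes tested), 2 between IMR-32 and SH-SY5Y (3.07%) and 0 between SK-N-BE(2)C and SH-SY5Y (2.04%), where edgeR gave 10 at an unadjusted p under 0.05 and a lowest adjusted p of 0.14, and 3 were called with the replicate block. The 24 h differences were those of COL14A1 (2.34 ± 0.40), ITGA9 (0.94 ± 0.21), COL23A1, ITGB8 and LAMA4 for SK-N-BE(2)C minus IMR-32, and of ITGA4 (0.92 ± 0.19) and ITGA7 (-1.34 ± 0.39) for IMR-32 minus SH-SY5Y. At the longer time 27 differed between SK-N-BE(2)C and IMR-32 (23.9%), 26 between SK-N-BE(2)C and SH-SY5Y (21.2%) and 24 between IMR-32 and SH-SY5Y (20.8%). Of the 61 genes tested, 23 were called with the higher value in SK-N-BE(2)C than in IMR-32, against 13.2% of all genes tested. As a part of the genes called, these were 23 of 27, against 2146 of 3890 over all genes. Without replicate 3 or replicate 4 of every group, the count between SK-N-BE(2)C and SH-SY5Y was 17, and at 24 h the 5 became 1 or 2 without any of replicates 1 to 4 and the 2 became 1.

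Of the 30 genes tested in every line, COL23A1, ITGB1 and LAMB1 were called in none at the longer time (39.3% of all genes so tested). Of the 45 collagen, laminin, integrin and fibronectin genes tested in at least 2 lines, 9 were called in opposite directions in a pair of lines (2.83% of the 14199 genes of all kinds so tested), and each of those differences passed the test of the difference itself. They were FN1 (SK-N-BE(2)C minus IMR-32, 3.45 ± 0.45, 95% interval 2.57 to 4.32, and minus SH-SY5Y, 2.80 ± 0.43), COL14A1 (SK-N-BE(2)C minus IMR-32, 4.01 ± 0.40), ITGA1 (IMR-32 minus SH-SY5Y, -2.36 ± 0.38), ITGA7 (IMR-32 minus SH-SY5Y, -2.84 ± 0.39), COL5A2 (IMR-32 minus SH-SY5Y, 2.69 ± 0.31), COL27A1 and ITGA5 (SK-N-BE(2)C minus SH-SY5Y, 2.74 ± 0.49 and 2.45 ± 0.60), COL18A1 (SK-N-BE(2)C minus SH-SY5Y, -1.86 ± 0.24) and COL5A1 (SK-N-BE(2)C minus IMR-32, -1.12 ± 0.29). ITGA5, the fibronectin receptor chain, was under 1 CPM on average in both lines, and its rise in SK-N-BE(2)C (0.90 ± 0.34) ended without replicate 5 of control or of 7 days (0.74 to 0.78, adjusted p 0.065 to 0.077). The IMR-32 calls of COL5A1, ITGA1 and ITGA7 likewise ended with 1 library left out, as given above. They also ended without replicate 1, 2 or 3 of every group for COL5A1, 1 to 4 for ITGA1 and 2 to 4 for ITGA7. COL27A1 is named for this pattern alone, and no values with libraries left out are given for it.

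**Figure D5:**
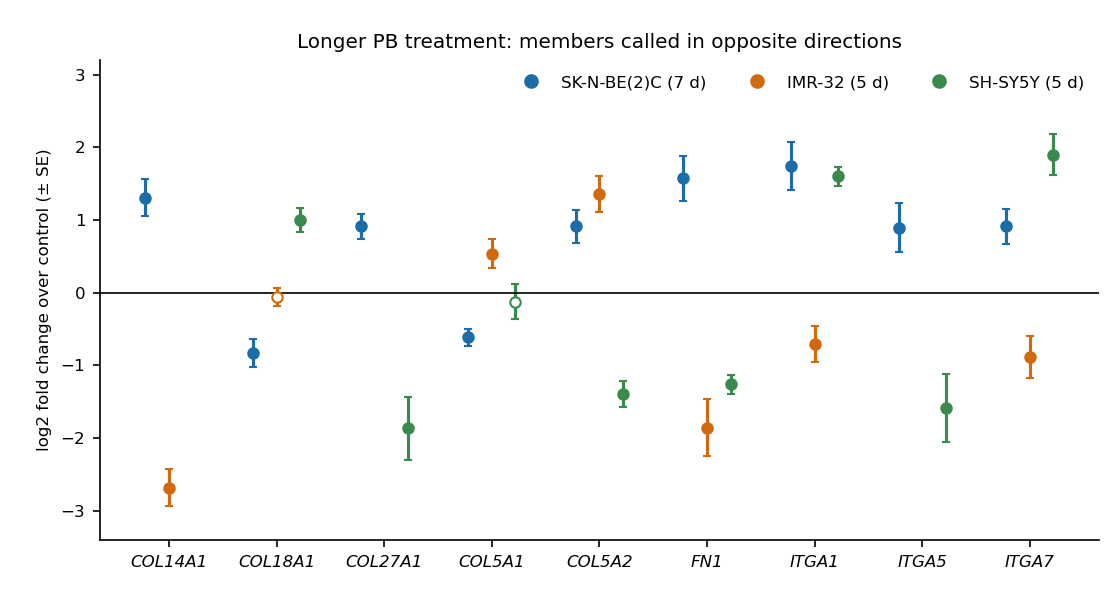
Log2 fold change against control at the longer time (points, with SE bars) for the 9 genes called in opposite directions in a pair of lines, by line, with filled points where called and open points where not. FN1 sits at -1.86 in IMR-32, -1.26 in SH-SY5Y and 1.57 in SK-N-BE(2)C.

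Genes that process, partner or receive these proteins were counted from fixed lists, whose counts are to be read against the shares of all genes tested that were called. At the longer time these shares, higher and then lower, were 16.6% and 15.5% for IMR-32, 18.6% and 17.3% for SH-SY5Y and 24.5% and 22.3% for SK-N-BE(2)C. Of the collagen-processing enzymes, 12 of 24 tested fell and 0 rose in IMR-32 at 5 days, among them the crosslinking oxidases LOX (-1.35) and LOXL2 (-1.68) and the hydroxylase PLOD2 (-1.48), and 2 were higher and 5 lower of 23 in each of SK-N-BE(2)C and SH-SY5Y. At 24 h these counts were 1 higher and 3 lower in IMR-32 (7.87% and 10.5% of all genes), 1 and 2 in SK-N-BE(2)C (10.9% and 10.6%) and 3 and 1 in SH-SY5Y (10.5% and 11%). Of other basement membrane proteins, 1 rose and 4 fell of 8 in SK-N-BE(2)C, 2 rose and 6 fell of 10 in IMR-32 and 1 rose and 2 fell of 9 in SH-SY5Y at the longer time. AGRN (agrin), which organizes the neuromuscular synapse, was among the risers in each line (2.30, 0.78 and 0.95), and NID1 (nidogen, the laminin to collagen IV linker) fell in IMR-32 (-3.19) and SH-SY5Y (-0.60).

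The remaining lists at the longer time, against the same shares, gave, for other matrix receptors, 1 higher and 2 lower of 9 in IMR-32, 1 and 4 of 13 in SH-SY5Y and 4 and 5 of 13 in SK-N-BE(2)C. Adhesion machinery, the talin and kindlin side of integrin signaling, gave, in the same order of lines, 3 and 4 of 33, 2 and 5 of 32 and 3 and 6 of 34. Matricellular and elastic fiber genes gave 1 and 5 of 11, 4 and 4 of 10 and 2 and 3 of 7, and matrix proteases and inhibitors 4 and 2 of 14, 3 and 2 of 16 and 3 and 4 of 16.

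Markers of other cell states moved at the same times. The summed level of 17 mesenchymal-state markers ranged over 814 to 1101 CPM in SK-N-BE(2)C controls and 475 to 730.0 at 7 days, with 9 of 13 tested lower and 2 higher, over 697 to 1287 and 321 to 557 in IMR-32, with 7 of 11 lower and 1 higher, and over 1547 to 2003 and 1273 to 1413 in SH-SY5Y, with 8 of 13 lower and 2 higher. The summed level of 8 fibroblast markers ranged over 738 to 883 CPM in SK-N-BE(2)C controls and 805 to 1193 at 7 days, with 4 of 7 higher and 1 lower, over 84.7 to 165 and 46.7 to 67.5 in IMR-32, with 1 of 6 higher and 3 lower, and over 395 to 505 and 293 to 404 in SH-SY5Y, with 1 of 7 higher and 3 lower. FAP was at 0 counts in every SK-N-BE(2)C library. The 6 Schwann and glial markers found summed to at most 27.7 CPM in any library, with 1 of 3 tested higher and 1 lower in SK-N-BE(2)C, 1 of 1 higher in IMR-32 and 2 of 3 higher in SH-SY5Y at the longer time. Their part in the results above was not tested.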

How the data were processed

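RNA was measured in 3 lines under 3 conditions each, with 5 replicates in every group. The authors trimmed reads with Trim Galore 0.6.4 (minimum phred score 20), aligned them to hg19 with STAR 2.6.1d (both versions per the submitters' processing notes, while the study's methods name another STAR release) and deposited raw read counts per gene, which are the only values used here. The sources used here do not say which strand was counted, so the longest overlaps with exons of the opposite strand are named beside the genes concerned, while shorter ones, such as 790 bases in LAMA2, 763 in ITGA9, 484 in LAMB1, 401 in ITGB1, 362 in LAMA5, 117 in COL16A1, 85 in COL19A1 and 59 in COL1A1, are not. The deposited CPM tables and the authors' DESeq2 tables, which hold fold changes and adjusted p-values, were not used.

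Samples were grouped by their labels, and in no group did replicates agree within sampling noise (chi-square per degree of freedom 1.69 to 86.9). The 76 genes and all lists were chosen with earlier results of these data known, and so were the alternatives. Counts were analyzed in R 4.3.3 with edgeR 4.0.16: after filterByExpr (minimum count 10, minimum total 15, minimum share 0.7) and TMM scaling, each line's 15 libraries were fitted with 1 mean per group by robust quasi-likelihood, and F-test p-values were adjusted over all genes tested (Benjamini-Hochberg). Calls needed an adjusted p under 0.05 together with a log2 fold change beyond 0.5 either way, the limits of the study. A fit of all 45 libraries tested differences between lines. CPM values were computed here from counts and TMM factors, and per kilobase of the canonical GENCODE transcript on GRCh37 where genes are compared. Ratios of chain pairs were compared by two-sided exact permutation tests, whose smallest p with 5 against 5 is 0.0079, adjusted over 33 comparisons. The script was tested on simulated counts.

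The genes named were those called the same way in all 3 lines, up to 8 with the largest rise and 8 with the largest fall per line and comparison at a mean of at least 1 CPM, a fixed list of broadly expressed chains, and chain pairs. Other genes are named where a count or a pattern across lines includes them. The pair LAMB2 to LAMB1 was chosen after its values were seen, and the pair LAMA5 to LAMA1 was not among the planned pairs either. Both are counted in the 33 comparisons of ratios, and no test of either is quoted.

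After group means were taken out, libraries with the same replicate number correlated above 0.1 in each comparison of SH-SY5Y (lowest 0.249, 0.109 and 0.136), in each of IMR-32 (0.129, 0.114 and 0.120) and at 24 h against control for SK-N-BE(2)C (0.243), but not in the comparisons of 7 days in that line (lowest 0.0966 and 0.0482), and there the number was not taken as a pairing. Alternatives were other scalings, no filter, the replicate number as a block, DESeq2 1.42.0, each replicate or library left out, and SK-N-BE(2)C replicates 3 to 5 summed. Libraries held 13459219 to 25441812 counts, so 3 counts, the floor here, are under 1 CPM in each, and precision at low levels is limited by counting.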

Additional observations from a re-analysis of the deposited data

Results flagged for a closer look

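In groups of 5, a library whose gap to the nearest other exceeded Dixon's 95% critical value of 0.71 of the group's range was noted for 24 of the 293 groups of named genes tested. Chance gives about 1 in 20 groups.

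The IMR-32 control of replicate 5 accounted for 7 of them, in each of which it was the highest of its group: FN1 (84.0 CPM against a median of 28.3 in the other 4), LAMA1 (71.6 against 25.7), COL4A1 (60.9 against 32.2), COL16A1 (46.4 against 17.0), LAMC3 (56.0 against 35.2), COL6A6 (6.69 against 0.429) and ITGB1 (400.4 against 305). Replicate 5 also stood apart in IMR-32 at 24 h, high for COL6A6 (10.6 CPM) and LAMC3 (30.1) and low for ITGA3 (4.97), and at 5 days, high for COL14A1 (4.79), COL1A1 (36.9) and ITGA10 (1.67).

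The other libraries noted were spread over the lines. In SK-N-BE(2)C, replicate 1 was high for COL18A1 (33.3 CPM) and COL6A2 (52.3) in control, and for ITGA6 (107) and ITGB5 (43.0) at 7 days. In IMR-32, COL5A2 was high in replicate 2 at 5 days (4.02), and among controls ITGB8 was low in replicate 1 (2.97) and LAMB1 in replicate 3 (223). In SH-SY5Y, COL26A1 was high in replicate 4 (5.11) and COL7A1 in replicate 1 (9.89) at 5 days, ITGA9 was low in replicate 3 at 5 days (19.8), and ITGA1 was low in replicate 3 of control (127).

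The response at the longer time differed between lines, in opposite called directions and by the test of the difference, for 9 genes. As SK-N-BE(2)C minus IMR-32, the log2 differences were 4.01 for COL14A1, 3.45 for FN1, 2.48 for ITGA1, 1.83 for ITGA7 and -1.12 for COL5A1. As SK-N-BE(2)C minus SH-SY5Y, they were 2.80 for FN1, 2.74 for COL27A1, 2.45 for ITGA5, 2.27 for COL5A2 and -1.86 for COL18A1. As IMR-32 minus SH-SY5Y, they were 2.69 for COL5A2, -2.36 for ITGA1 and -2.84 for ITGA7. The line and, for SK-N-BE(2)C, the days of treatment cannot be told apart in these values. The IMR-32 calls of COL5A1, ITGA1 and ITGA7 and the SK-N-BE(2)C call of ITGA5 ended with 1 library left out.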

How the results depend on the processing

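Of 218 values of named genes, 108 called, none reversed under any alternative. RLE scaling, library size alone, no filter, the replicate block, DESeq2 and the summed replicates ended 2, 1, 10, 2, 3 and 12 calls, and gave 2, 3, 0, 8, 2 and 0 new ones. Leaving out each library in turn ended 20 of the 108 calls with at least 1 library, and 88 held with any 1 library left out. Leaving out a replicate from every group ended 24 calls with at least 1 of the 5. The cause was not tested in these cases.

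With replicates or single libraries left out in turn, SK-N-BE(2)C had 10 to 16 genes called at 24 h, 22 to 29 at 7 days and 17 to 22 between these times. The same counts were 15 to 21, 25 to 28 and 15 to 20 for SH-SY5Y, and 5 to 16, 19 to 33 and 11 to 25 for IMR-32. Genes that differed in response at 24 h ranged over 1 to 4 for SK-N-BE(2)C and IMR-32 (3 with no filter), 0 for SK-N-BE(2)C and SH-SY5Y, and 1 to 3 for IMR-32 and SH-SY5Y. At the longer time they ranged over 22 to 30, 17 to 24 and 17 to 23, and without treatment over 46 to 49, 40 to 44 and 48 to 54. Summing SK-N-BE(2)C replicates 3 to 5 gave 6 calls at 24 h.

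With the replicate block, these calls numbered 18, 27 and 20 for SH-SY5Y, 15, 29 and 18 for IMR-32 and 14, 29 and 20 for SK-N-BE(2)C, and 3 genes differed at 24 h between SK-N-BE(2)C and SH-SY5Y, where the fit without it called 0. In SK-N-BE(2)C at 7 days, where the numbers did not pair the libraries, the block ended the COL16A1 call (adjusted p = 0.054) and added ITGA6 (-0.54) and LAMC3 (-0.61). Apart from the values given beside the results, it changed no other call of a named gene.

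The lines were treated for different times, each background is a single line, and genes at a few CPM rest on few reads.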

Other observations

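Some of these genes stood higher at 24 h than at the longer time without being called against control at the end. In SK-N-BE(2)C, COL6A6, a type VI collagen chain, averaged 59.7 ± 11.3 CPM in controls, 87.6 ± 10.0 at 24 h and 48.7 ± 13.5 at 7 days, and fell between the treated times (-0.84 ± 0.17, adjusted p = 0.00056, edgeR). The collagen receptor chain ITGA11 in the same line averaged 48.7 ± 7.29, 60.5 ± 6.16 and 35.5 ± 4.09 CPM and fell between the treated times (-0.76 ± 0.10, adjusted p = 1.4e-05). In IMR-32, LAMB2 averaged 18.7 ± 3.32, 27.5 ± 8.62 and 17.0 ± 3.16 CPM (-0.66 ± 0.19, adjusted p = 0.015), and in SH-SY5Y COL9A2 averaged 5.18 ± 1.51, 7.91 ± 2.29 and 4.38 ± 1.29 CPM (-0.84 ± 0.23, adjusted p = 0.0076). COL18A1 in IMR-32 (-0.51 ± 0.12) and COL23A1 (-1.16 ± 0.30) and ITGA6 (-0.51 ± 0.19) in SH-SY5Y also fell between the treated times and were called against control at neither. These genes were picked by this pattern, so the values describe it.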
